A study of Mus musculus with 2 samples.

Results

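The regions described here are 20-kb stretches of the mouse genome that were dense in GATA3 signal in CD4+ T cells given TGF-β and IL-4. The sequencing library of those cells is called the TGF-β/IL-4 library. Chromosomes 1 to 19 were cut into 123623 tiles of 20 kb, and each tile into 100 bins of 200 bp. Fragment centres, taken as the 5′ end of a read moved 63 bp inwards, were counted in the bins. A bin counted when it held at least 1 RPM (1 read per 1000000 reads of the library) and at least 70% of its reads carried the highest mapping quality, 42. The 2090 tiles with 5 or more counting bins in the TGF-β/IL-4 library are the dense windows, 1.69% of all tiles. Reads of that library chose them, so their density there is a description. The second library of the series had no part in the choice. Positions are given in the mm9 build, and no gene is assigned to them because no annotation of that build was used here.

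GATA3 is a zinc-finger transcription factor that binds GATA motifs. It is needed for the development of CD4+ T cells and directs the T helper 2 fate downstream of IL-4 and STAT6. With TGF-β and IL-4 together, CD4+ T cells take up the IL-9-producing T helper 9 fate, in which GATA3 also acts. At genes that define a cell type, transcription factors often occupy several enhancers within a short distance, and a window of this size can hold several of them. Whether the dense windows lie at enhancers or at such genes was not tested.

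Both libraries come from GATA3 chromatin immunoprecipitation in T cells of C57BL/6 mice that were naive, CD25-negative and CD62L-positive when isolated. In one the cells carry the treatment label TGF-β plus IL-4, and the protocol gives the doses as 2 ng/ml of TGF-β1 and 10 ng/ml of IL-4, with anti-CD3 and anti-CD28 (1 µg/ml of either). The second library has no named treatment, and its labels do not settle whether it received TGF-β1 alone or was unstimulated. It is called the unnamed library below. No time in culture, genotype or number of mice is given, each condition has 1 library, no input library was used here, and the cell type could not be checked against markers in these data.

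On the autosomes and sex chromosomes the unnamed library had 22963959 reads and the TGF-β/IL-4 library 15561681. At these depths a counting bin needed 23 and 16 reads. The dense windows held a median of 515 reads in the TGF-β/IL-4 library (80% of windows 362 to 811) and 599 in the unnamed library (379 to 906). The exact 95% interval of a window's ratio had an upper bound 1.27 times its lower bound at the median. These intervals cover counting error only and say nothing of the spread between cultures, which 1 library per condition cannot show.

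A small group of windows stood apart, by limits set after the data had been seen. In 53 of the 2090 (2.54%) either fewer than 80% of the reads of the TGF-β/IL-4 library reached the top mapping quality or the median bin held at least 10 reads in either library. Among all tiles with 20 reads or more the same held for 18.7%, and the median tile had 1 read in its median bin in both libraries. Most conspicuous were 3 neighbours on chromosome 11 between 3040001 and 3100000, where the median bins held 24 to 36 reads in the TGF-β/IL-4 library and 36 to 64.5 in the unnamed library. An unbroken stretch of 8 windows on chromosome 2, from 77700001 to 77860000, had 67.6% of its reads at the top mapping quality, and the window on chromosome 17 from 39980001 to 40000000 had 65.7%. In that last window the distance between the strands was 30 bp in both libraries, the lowest value searched, against a median of 128 and 126 bp over all dense windows. Without an input library, extra copies of a sequence and GATA3 occupancy cannot be told apart in such windows. The 53 held 4.06% of the reads of the dense windows, and without them the median ratio of the remaining 2037 was 1.31, as with them, and 456 of them were called higher by the rule below.

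The typical dense window was a loose group of a few separate sites and not one broad block. The windows held a median of 6 counting bins (80% of windows 5 to 10, at most 42). When counting bins were joined across gaps of 1 bin, they formed a median of 3 sites, spread over 9.2 kb. In 123 windows all counting bins fell into 1 site, in 481 into 2, in 664 into 3, in 474 into 4, in 222 into 5 and in 126 into 6 or more. Centres of neighbouring sites lay a median of 2.45 kb apart (80% between 0.9 and 8.6 kb). The strongest bin took a median of 15.6% of a window's reads, and all counting bins together took 49.1%. Dense windows made up 1.69% of tiles and held 7.63% of the reads of this library and 32.9% of its counting bins, 14643 of 44558. In the unnamed library they held 5.83% of the reads.

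Most of the same windows carried sites in the unnamed library too, with fewer bins over the threshold. There the windows held a median of 4 counting bins (80% between 2 and 7). Of the 2090 windows, 761 (36.4%, 34.4% to 38.5%) had 5 or more counting bins in that library too, against 0.714% of all tiles with 20 reads or more. A further 400 had 4, 428 had 3, 304 had 2, 155 had 1 and 42 had none. The unnamed library had fewer counting bins in 1900 windows, as many in 128 and more in 62. With that library thinned to the depth of the other, the share that met the rule was 36.0%. Read in the other direction, 842 windows met the rule in the unnamed library and 90.4% of them were dense windows.

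**Figure D1:**
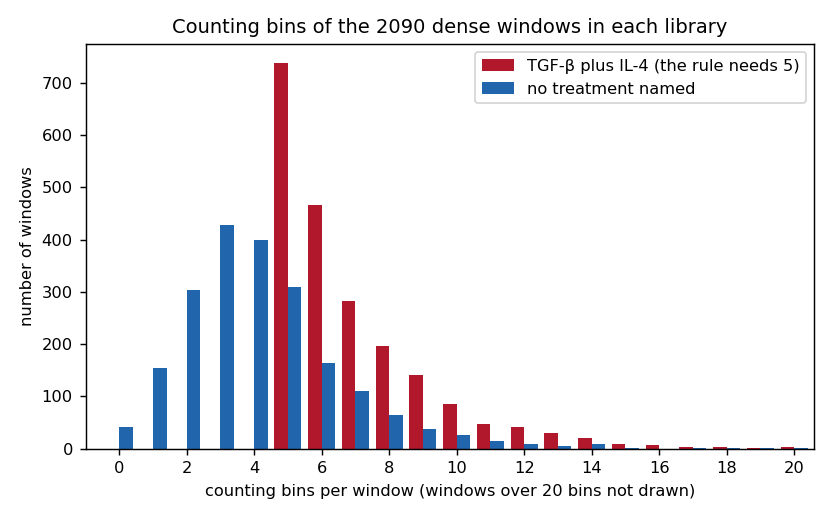
Number of dense windows (y axis) by their number of counting bins (x axis) in the TGF-β/IL-4 library (red) and in the unnamed library (blue). The red bars start at 5 because the rule requires it; the blue bars peak at 3 and 4, with 428 and 400 windows.

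Within the dense windows, nearly all bins that counted in the unnamed library also counted in the TGF-β/IL-4 library, and the converse held for 54.8%. Of the 14643 counting bins in dense windows, 8020 (54.8%) also counted in the unnamed library, and they were 91.5% of the 8768 that counted there. The choice of windows in the TGF-β/IL-4 library favours the 91.5%. Bins of like strength outside the dense windows had similar shares. Between 1 and 1.5 RPM, 21.9% of bins in dense windows and 23.2% in tiles with 1 to 4 counting bins also counted in the unnamed library. The strongest bin of the window was the same bin in both libraries in 1573 windows (75.3%), and the same or the next one in 1668 (79.8%). In 522 windows (24.98%) at least 1 bin counted in the unnamed library and not in the other, 748 such bins in all. Total RPM of a window in the 2 libraries followed the same order, with a Spearman rho of 0.84 across the 2090 windows. That value is a description, since windows share their libraries and neighbouring sequence.

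In nearly all dense windows total RPM was higher in the TGF-β/IL-4 library. The median window had 33.1 RPM in that library (80% of windows 23.3 to 52.1) and 26.1 RPM in the unnamed library (16.5 to 39.5). The median ratio was 1.31, with 80% of windows between 1.06 and 1.65 and extremes of 0.567 and 3.16. Over all tiles with 20 reads or more the median ratio was 1.00. The ratio was over 1 in 1973 windows (94.4%) and in 50.4% of all tiles. In 1701 windows the interval lay wholly over 1, and in 26 wholly under 1. At a ratio of at least 1.5 with an interval over 1, 467 windows (22.3%) were higher, against 7.36% of all tiles. At the opposite bound 1 window was lower, against 2.78%. Most tiles held 0 counting bins, and of these 6.94% were higher and 3.25% lower. Tiles closer to the rule were more like the dense windows. With 4 counting bins 13.6% were higher and 0% lower, and with 3 counting bins 12.9% and 0.045%. The number of higher windows moved with the bound, to 52 at a ratio of 2 and 1269 at an excess of 25%.

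**Figure D2:**
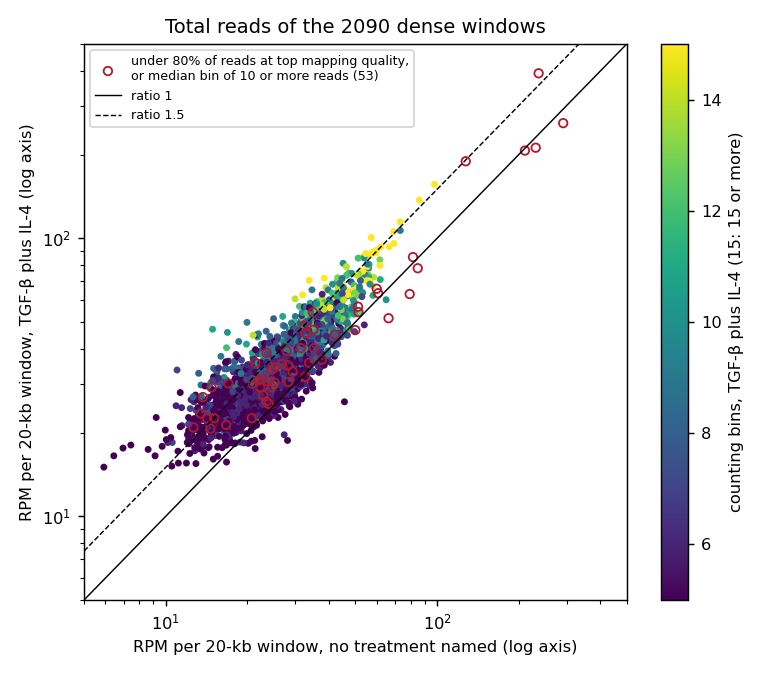
Total RPM of each dense window in the unnamed library (x axis) and in the TGF-β/IL-4 library (y axis), both on log axes and coloured by counting bins, with lines at a ratio of 1 and 1.5. Most points lie between the lines or above both, around the median ratio of 1.31; red circles mark the 53 windows with low mapping quality or a raised median bin, which include the 4 highest in RPM.

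Choosing windows by high values in 1 library favours that library, so the choice was varied. When windows were chosen in every other read of the TGF-β/IL-4 library and counted in the remaining reads, 2336 windows were found and their median ratio was 1.30. When they were chosen in the unnamed library, which favours ratios under 1, the median ratio of the 842 windows was 1.24. The 761 windows that met the rule in both libraries had a median of 1.27, the 1329 that met it in the TGF-β/IL-4 library alone 1.33, and the 81 that met it in the unnamed library alone 1.05. Those 81 held 1 to 4 counting bins in the TGF-β/IL-4 library.

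Ratios were higher in the counting bins than between them, by an amount that depended on which library chose the bins. In the counting bins the median ratio per window was 1.64 (80% of windows 1.23 to 2.19), and in the remaining bins of the same windows it was 1.09 (0.893 to 1.41). The ratio of the counting bins was the larger in 2005 windows (95.9%). The rule favours this, since it picks bins by high values in the numerator. With windows and bins chosen in the unnamed library, which favours the opposite, the medians were 1.35 in the counting bins and 1.15 in the rest. With bins chosen in every other read and counted in the others the medians were 1.62 and 1.09. At the bins of the dense windows that counted in the unnamed library the median was 1.44. Leaving out bins next to a counting bin brought the median outside the sites to 1.05. Pooled over all dense windows the ratio was 1.60 (1.59 to 1.60) in 14643 counting bins and 1.10 (1.09 to 1.10) in the rest. After the median bin was subtracted from each bin of a window, the median ratio of whole windows was 1.63.

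Aligned at the strongest bin, the mean profile of 2037 windows, leaving out the 53 above, fell steeply in both libraries. At the strongest bin the means were 6.47 RPM in the TGF-β/IL-4 library and 4.07 in the unnamed library, a ratio of 1.59. At 1 kb they were 0.399 and 0.296 (ratio 1.35), at 5 kb 0.239 and 0.199 (1.2) and at 10 kb 0.216 and 0.186 (1.17). Flanking tiles pooled by their distance had ratios near or under 1. In tiles that were no dense windows themselves the pooled ratio was 1.03 at 20 kb, 0.995 at 40 kb, 0.97 at 100 kb, 0.937 at 400 kb and 0.962 at 1000 kb. In the 1591 neighbouring tiles with 0 counting bins it was 0.92 (0.915 to 0.924), with a median of 10.8 RPM in the TGF-β/IL-4 library and 11.9 in the other. Having 0 counting bins in the TGF-β/IL-4 library itself favours a low ratio. For comparison, the pooled ratio of all tiles with 0 counting bins was 0.938.

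**Figure D3:**
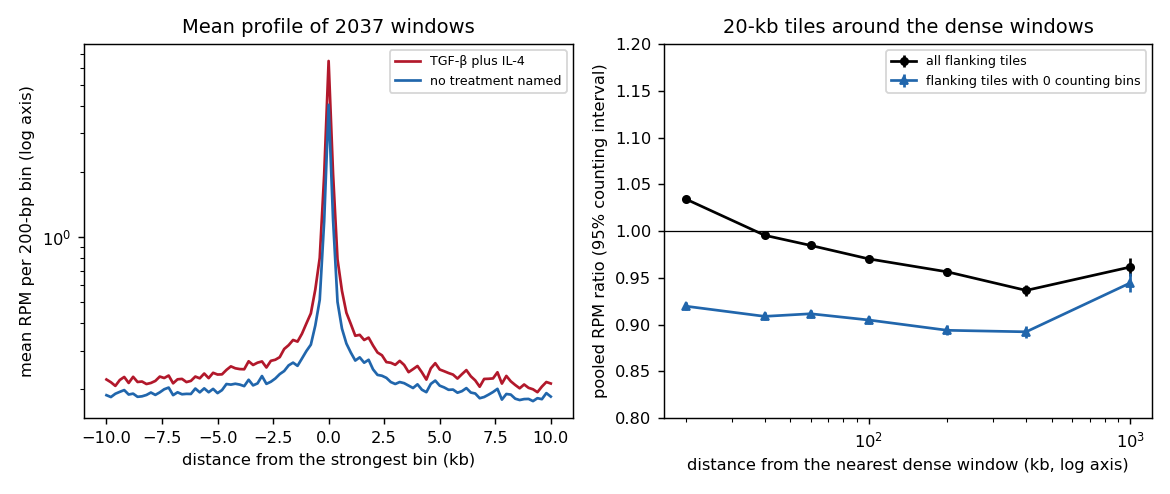
Left, mean RPM per 200-bp bin (log axis) against the distance from the strongest bin of 2037 dense windows in both libraries; right, pooled RPM ratio of 20-kb tiles against their distance from the nearest dense window (log axis), for all flanking tiles and for those with 0 counting bins, with 95% counting intervals. The profile falls from 6.47 and 4.07 RPM within 1 kb, and the ratio of the flanking tiles falls from 1.03 at 20 kb to 0.937 at 400 kb and is 0.962 at 1000 kb.

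Tiles with more counting bins mostly had a higher ratio. The median ratio was 0.98 in tiles with 0 counting bins, 1.02 with 1, 1.09 with 2, 1.17 with 3 and 1.2 with 4. In dense windows it went from 1.27 with 5 counting bins to 1.40 with 9, 1.37 with 10 to 14 and 1.48 in the 39 windows with 15 or more. The pooled ratio of the counting bins themselves moved little, from 1.52 in tiles with 1 to 1.60 with 5, 1.67 with 9 and 1.5 with 15 or more. The pooled ratio outside them went from 0.938 with 0 to 1.08 with 5, 1.15 with 10 to 14 and 1.11 with 15 or more. The class of 15 or more includes the 3 windows on chromosome 11 that stood apart, whose counting bins had ratios of 0.881, 1.00 and 0.903. They lower its pooled ratios, which were not computed without them. In its 35 windows that did not stand apart the median ratio of whole windows was 1.49. Counting bins were also chosen in the library that forms the numerator, which favours a high ratio in every class. Across the dense windows alone, ratio and number of counting bins had a Spearman rho of 0.18, a weak relation between values of the same reads. Grouped by separate sites, windows with 1 site had a median ratio of 1.35 (31 of 123 higher), those with 3 had 1.29 (137 of 664) and those with 6 or more had 1.30 (30 of 126).

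**Figure D4:**
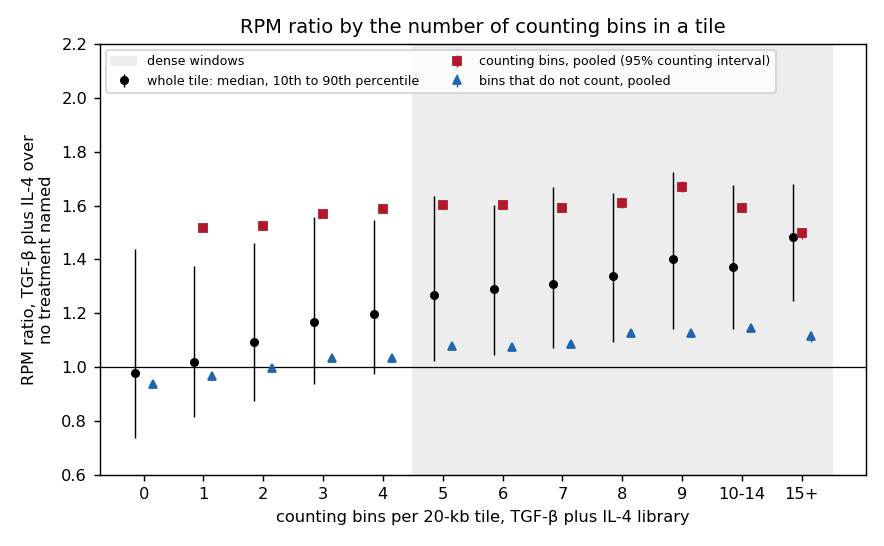
RPM ratio of the TGF-β/IL-4 library over the unnamed library (y axis) by the number of counting bins in a 20-kb tile (x axis): median and 10th to 90th percentile of whole tiles (black), pooled ratio of counting bins (red) and of the other bins (blue) with 95% counting intervals, dense windows shaded. The black points run from 0.98 to 1.48 with a dip from 1.40 to 1.37 at 10 to 14 bins, the red points stay between 1.5 and 1.67, and the blue points rise from 0.938 to 1.15 and end at 1.11. The class with the most counting bins includes windows that stood apart, which lower its pooled ratios.

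Sites in dense windows were compared with sites of like strength elsewhere. Among bins of at least 5 RPM in the TGF-β/IL-4 library the pooled ratio was 1.61 (1.60 to 1.62) in 1674 bins of dense windows, 1.54 (1.53 to 1.54) in 1671 bins of tiles with 1 to 4 counting bins and 1.44 (1.41 to 1.47) in those 152 of the latter that were alone in their tile. Their mean strength differed too, at 8.75, 7.76 and 6.73 RPM. Between 2.5 and 5 RPM the ratios were 1.59, 1.52 and 1.44, at means of 3.41, 3.35 and 3.28 RPM. Between 1 and 1.5 RPM they were 1.61, 1.58 and 1.57. The median ratios per bin ran the other way in this weakest class, at 1.70, 1.75 and 1.79. In the stronger bins above, the medians kept the order of the pooled ratios. The intervals for the stronger bins did not overlap, but they cover counting error only. The groups were formed by the number of counting bins in the numerator library, which favours a higher ratio where more bins count. The order therefore cannot be read as a trait of dense windows. By the rule for calls, 6781 counting bins of dense windows (46.3%) were higher and 85 (0.58%) lower, against 43.7% and 0.976% of all counting bins. Over all strengths the median ratio of a counting bin was 1.69 in dense windows and 1.67 outside them. Whether the immunoprecipitation enriched sites more strongly in one library than in the other was not tested.

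Of all counting bins in dense windows 91.3% had a ratio over 1, which their choice in the numerator library favours. Every counting bin had a ratio over 1 in 1315 windows (62.9%), a count from which no agreement within windows can be read. At least 1 bin was called higher in 1947 windows and at least 1 was called lower in 73, and 63 windows held bins of both kinds. Ranked by reads in the TGF-β/IL-4 library, the strongest bin of each window had a pooled ratio of 1.59 (1.58 to 1.60) and the fifth strongest 1.63 (1.61 to 1.65). The strongest bins had a median of 5.14 RPM and the fifth strongest 1.29 RPM, and the ratio differed little over that range of strength. Few positions were full: the median counting bin had a read at 6.75% of its 400 positions, and 230 bins (1.57%) exceeded 50%. In the fullest bins the limit of 400 reads can draw the ratio towards 1.48, the value at equal read counts. The fullest of all, on chromosome 2 from 77743001, held 372 reads against 370.

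The windows with the most counting bins fell on both sides of the limits for standing apart. The 4 at the top of the list were among the 53 that stood apart. On chromosome 11, between 3060001 and 3080000, 42 bins counted in the TGF-β/IL-4 library and 40 in the unnamed library, with 212 and 231 RPM and a ratio of 0.917 (0.878 to 0.958). Its neighbours from 3080001 and from 3040001 held 34 and 33 counting bins and had ratios of 0.981 and 0.89. These 3 also had the most counting bins in the unnamed library, and with the chromosome 17 window (392 RPM against 237, ratio 1.66) they were the 4 highest in RPM. In the 3 on chromosome 11 signal was raised across the whole 20 kb, whereas the counting bins of the chromosome 17 window spanned 5.4 kb. The window on chromosome 2 from 77740001 to 77760000 had 29 counting bins, 72.5% of reads at the top mapping quality and a ratio of 1.48 (1.41 to 1.56). Its counting bins formed 14 sites, and its strongest bin, the highest of all dense windows, held 23.9 RPM against 16.1.

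The windows that followed in this order did not stand apart and had sharp sites over a low background. On chromosome 9, between 107180001 and 107200000, 26 bins in 9 sites counted in the TGF-β/IL-4 library and 18 in the unnamed library. This window held 137 and 86.1 RPM, a ratio of 1.59 (1.5 to 1.69). Its strongest bins, from 107181001 and from 107198001, lay at opposite ends and held 17.6 and 17.1 RPM against 11.6 and 10.3. On chromosome 1, between 193000001 and 193020000, there were 24 counting bins against 14, and 106 RPM against 69.3, a ratio of 1.53 (1.42 to 1.64). On chromosome 9, between 32300001 and 32320000, there were 24 against 15, and 95.9 RPM against 69.4, a ratio of 1.38 (1.29 to 1.48). On chromosome 11, between 87560001 and 87580000, there were 22 against 14, with 2 dominant sites from 87565201 and 87573201, and 115 RPM against 73.2, a ratio of 1.57 (1.46 to 1.68). In these 4 windows the counting bins held 70.7% to 81.7% of the reads, and 94.99% to 96.2% of reads had the top mapping quality.

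The next 4 windows in this order, outside the 53, were picked after their values had been seen. On chromosome 8, between 117700001 and 117720000, 21 counting bins formed 12 sites, with 88.2 RPM against 54.6, a ratio of 1.62 (1.5 to 1.75). On chromosome 1, between 192920001 and 192940000, 21 bins formed 10 sites, with 87.2 RPM against 56.3, a ratio of 1.55 (1.43 to 1.67). On chromosome 8, between 124800001 and 124820000, by contrast, 20 counting bins formed 2 sites, and 86.7% of the reads lay in them. That window had 156 RPM against 97.9, a ratio of 1.60 (1.51 to 1.69), and 19 bins counted in the unnamed library. On chromosome 9, between 114380001 and 114400000, 20 bins in 5 sites counted against 11, with 100.6 RPM against 57.3, a ratio of 1.76 (1.63 to 1.89), and of 2.01 in the counting bins.

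**Figure D5:**
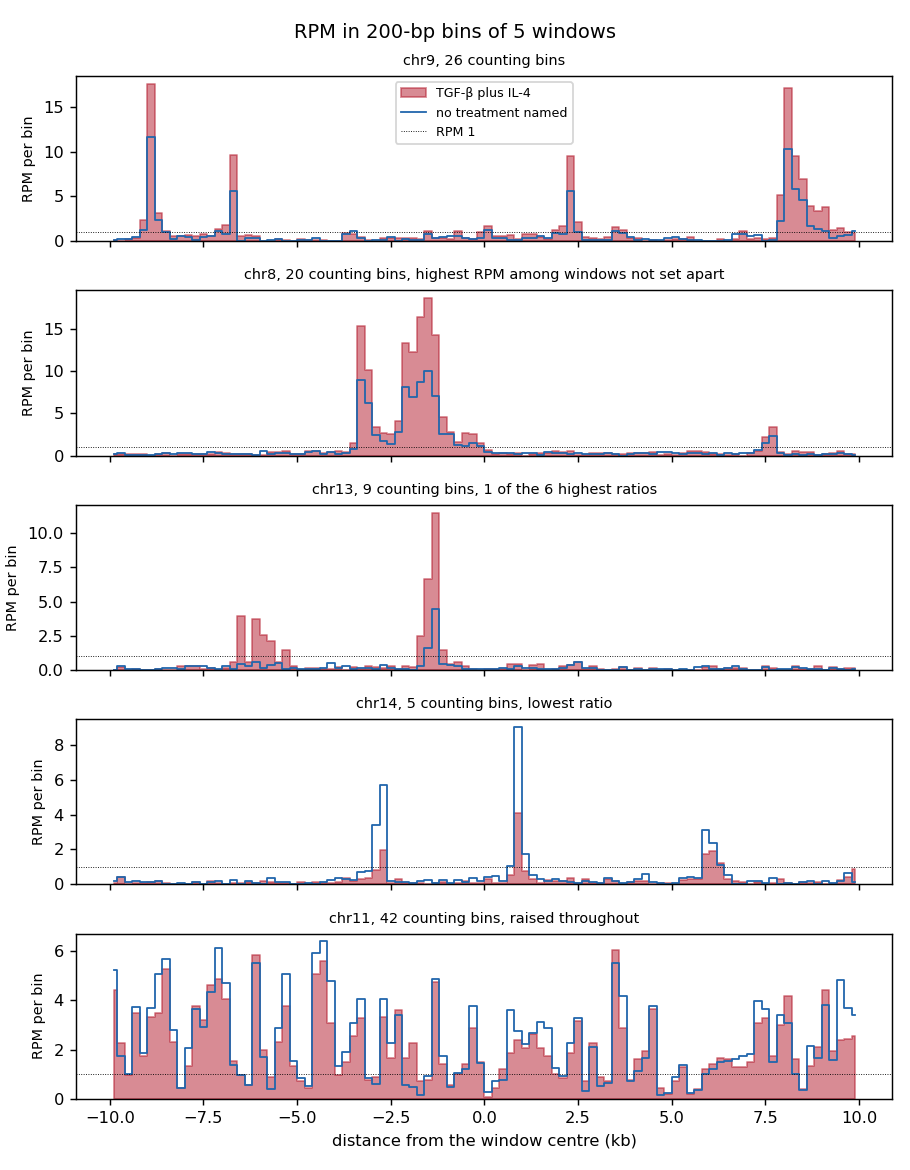
RPM per 200-bp bin (y axis) against the distance from the window centre in kb (x axis) for 5 windows, TGF-β/IL-4 library filled in red and unnamed library as a blue line, dotted line at RPM 1. The chromosome 9 window shows sharp sites higher in red. In the chromosome 8 window, also higher in red, 20 counting bins form 2 sites. The chromosome 13 window shows a group of bins that are lower in blue and do not count there, and the chromosome 14 window shows sites higher in blue (ratio 0.567). The chromosome 11 window shows signal across all 20 kb in both libraries.

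The 6 windows with the highest ratios, ordered by the lower bound of the interval, differed in where the excess lay, throughout the window or mainly at the sites. They were picked as extremes of 2090 windows, which their intervals do not account for. On chromosome 12, between 36240001 and 36260000, there were 47.1 RPM against 14.9, a ratio of 3.16 (2.78 to 3.61). Sites and background differed alike, with a ratio of 3.23 in its 11 counting bins and 3.06 in the rest. On chromosome 15, between 62580001 and 62600000, 45.9 RPM against 16.9 gave a ratio of 2.72 (2.40 to 3.08), with 2.69 in the counting bins and 2.88 in the rest. A window close by on the same chromosome, from 62640001, had 40.4 RPM against 16.8 and a ratio of 2.41 (2.12 to 2.74), with 2.98 and 1.78. On chromosome 18, between 89400001 and 89420000, there were 33.6 RPM against 11.02, a ratio of 3.05 (2.62 to 3.56), and 2.25 outside the counting bins. Its 7 counting bins had a ratio of 5.06 and none of its bins counted in the unnamed library.

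On chromosome 13, between 56600001 and 56620000, the difference lay almost wholly in the sites. The window had 49.9 RPM against 19.9, a ratio of 2.5 (2.22 to 2.81), with 4.23 (3.59 to 5.01) in its 9 counting bins and 1.22 outside them. Its stronger site, from 56608601 to 56608800, held 179 reads against 102, and 2.59 times the RPM (2.02 to 3.34). In its other site the bin from 56603401 to 56603600 held 61 reads against 10, a ratio of 9.002 (4.58 to 19.7), and did not count in the unnamed library. On chromosome 9, between 69480001 and 69500000, 32.7 RPM against 13.2 gave a ratio of 2.47 (2.14 to 2.86), with 4.37 in 8 counting bins and 1.41 outside them, and 1 bin counted in the unnamed library.

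Few windows had less RPM in the TGF-β/IL-4 library. The 6 lowest, ordered by the upper bound of the interval, are described here, of which 3 were outside the 53. On chromosome 14, between 70480001 and 70500000, there were 25.8 RPM against 45.6, a ratio of 0.567 (0.504 to 0.636), the single window past the bound for lower. It had 5 counting bins against 8 in the unnamed library. Its strongest bin, from 70490801 to 70491000, held 64 reads against 207, a ratio of 0.456 (0.339 to 0.607), and the bin from 70487201 held 31 against 131. On chromosome 17, between 71420001 and 71440000, 18.8 RPM against 28.1 gave a ratio of 0.667 (0.579 to 0.767), just short of that bound. There the site from 71421001 held 50 reads against 184 (ratio 0.401), while the bins from 71436401 and 71433801 had ratios of 1.35 and 1.02 with intervals that held 1. On chromosome 7, between 146620001 and 146640000, 19.7 RPM against 27.3 gave a ratio of 0.719 (0.625 to 0.826), with 6 counting bins in each library.

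The other 3 of the 6 lowest were among the 53 windows that stood apart. On chromosome 1 the windows from 90120001 and 90140001 had ratios of 0.779 and 0.795, with 7 and 12 counting bins against 12 and 20. Their counting bins had ratios of 1.05 and 1.02, and the remaining bins 0.743 and 0.746. The remaining window was that on chromosome 11 from 3040001, named above. Outside the 53, the next lowest by the same order, looked up after their values had been seen, were on chromosome 8 from 127860001 (0.825), on chromosome 11 from 54060001 (0.832) and on chromosome 17 from 73600001 (0.833), each with 5 counting bins and an upper bound of 0.934 to 0.941. In these 3 as well the counting bins were closer to 1, at 0.967, 0.948 and 0.865, than the rest, at 0.755, 0.772 and 0.811. In the 3 lowest outside the 53, on chromosomes 14, 17 and 7, the values ran the other way. Their counting bins had ratios of 0.515, 0.594 and 0.714, and the remaining bins 0.612, 0.738 and 0.724. In all of these windows outside the 53 the intervals of the counting bins and of the rest overlapped. On chromosome 7 they were 0.584 to 0.870 and 0.593 to 0.880. Counting error alone thus allows either order in them. The choice of counting bins in the numerator library favours a higher ratio in them.

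Dense windows often lay side by side. The 2090 windows formed 1714 stretches, and 649 windows (31.1%) touched another. There were 200 stretches of 2 windows, 53 of 3, 15 of 4, 3 of 5, 1 of 7 and 1 of 8. The longest, 160 kb on chromosome 2 from 77700001 to 77860000, consisted of windows that stood apart by mapping quality, with a ratio of 1.14 (1.11 to 1.17). The longest stretch outside that group was 140 kb on chromosome 4 from 32300001 to 32440000. Its 7 windows held 5 to 16 counting bins each, 68 in all against 45 in the unnamed library, with 329 RPM against 239, a ratio of 1.38 (1.32 to 1.43). Each of the 7 had a ratio over 1, from 1.22 to 1.61, and the pooled ratio was 1.62 in the counting bins and 1.17 between them.

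The 3 stretches of 5 windows and 3 of the 15 stretches of 4 were named after their values had been seen, to show the range. On chromosome 8, between 129320001 and 129420000, there were 49 counting bins against 33, with a ratio of 1.26 (1.2 to 1.32). On chromosome 13, between 30820001 and 30920000, there were 40 against 29, with 1.30 (1.24 to 1.36). On chromosome 18, between 82640001 and 82740000, there were 38 against 24, with 1.09 (1.04 to 1.14). That last stretch parted into counting bins at 1.41 and remaining bins at 0.915, and its windows ranged from 0.884 to 1.31. Of the stretches of 4 windows, the highest ratio was 1.59 (1.51 to 1.67) on chromosome 5 from 53920001 to 54000000, where all 4 windows lay between 1.51 and 1.73. On chromosome 9, between 114320001 and 114400000, 53 counting bins stood against 31, with a ratio of 1.55 and of 1.87 in the counting bins. On chromosome 11, between 53400001 and 53480000, 52 stood against 41, with a ratio of 1.27 and windows from 1.03 to 1.51.

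Every autosome held dense windows with a median ratio over 1. Per 1000 tiles with reads there were 17.6 over all autosomes, from 11.4 on chromosome 14 to 29.0 on chromosome 11. The median ratio of a chromosome's dense windows ran from 1.22 on chromosome 15 to 1.37 on chromosome 13, and that of all its tiles from 0.935 on chromosome 7 to 1.06 on chromosome 3. The share of dense windows called higher ran from 11.2% of 107 on chromosome 7 to 35.5% of 166 on chromosome 1. The median ratios of all tiles on these chromosomes differed as well, at 0.935 and 1.03. The share of all tiles called higher was not computed per chromosome, and over all autosomes it was 7.36%.

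Windows at the edge of the rule differed gradually from those outside it. The 737 windows with exactly 5 counting bins had a median of 27.7 RPM in the TGF-β/IL-4 library and 22.3 in the unnamed library, and a median ratio of 1.27. The 1360 tiles with exactly 4 had 23.6 and 20.03 RPM and a median ratio of 1.2. The strongest tile with 4 counting bins lay on chromosome 11 from 3020001 to 3040000, next to the windows there, with 132 RPM against 156 and 41.8% of reads at the top mapping quality. The next, on chromosome 9 from 68880001 to 68900000, had 69.2 RPM against 48.1, all 4 counting bins in 1 site and a strongest bin of 16.0 RPM. It held more RPM than most dense windows, with 68.6% of its reads in the 4 counting bins.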

How the data were processed

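Chromatin immunoprecipitation with a GATA3 antibody was sequenced in 2 libraries of mouse CD4+ T cells. Per the submitters' processing notes, CASAVA 1.0 and Bowtie2 were used and the build is mm9, and settings are not given in the sources used here. The authors deposited 1 line per aligned read of 25 bases, with a mapping quality score from 11 to 42. No read shared position and strand with another read of its library (0 in each), so a 200-bp bin can hold 400 reads at most. At bins with many filled positions this draws the read counts of the libraries together. Because the depths differ, equal read counts give an RPM ratio of 1.48. Ratios at the strongest sites can thus be drawn towards that value and not towards 1.

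Counts were made here for the autosomes and sex chromosomes, leaving out the mitochondrial reads, in numpy 2.4.6 and pandas 2.3.3 under Python 3.11.15, with intervals from scipy 1.17.1 and figures from matplotlib 3.10.9. RPM is reads per 1000000 reads of a library. Ratios carry exact Clopper-Pearson 95% intervals of the split of the reads, and shares carry Wilson 95% intervals. Both cover counting error only, and PCR reads that carry no molecular identifier do not count independent molecules. Tiles with at least 20 reads over both libraries served as the background. A tile was called higher at a ratio of at least 1.5 with an interval over 1, and lower at 0.667 or less with an interval under 1. With 1 library per condition no p-value is given. The code was tested on simulated data.

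Windows named in the text are the 8 with the most counting bins, the 4 with the highest RPM, the 6 with the highest and the 6 with the lowest ratio by the interval bound nearest to 1, the 3 with the most counting bins in the other library, the longest stretch of neighbouring windows and the 2 strongest windows just outside the rule. Windows named beyond this rule are marked. The members and these lists were chosen with earlier results of these data known. The gene and promoter tables at hand are of GRCm38, and positions were not converted between builds, so windows are given by mm9 position and no gene name or sequence is assigned to them. The alternatives were other tiles, bins, thresholds, shifts and scalings, a choice of windows in the other library, in both libraries or in every other read, and thinning of the deeper library. One alternative, without windows of low mapping quality or raised background, was added after the data had been seen.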

Additional observations from a re-analysis of the deposited data

Results flagged for a closer look

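The X chromosome lies outside the rule, which covers chromosomes 1 to 19. There 14 tiles of 20 kb met the same conditions in the TGF-β/IL-4 library, a signal in data that no comparison above uses. They were 14 of 7813 tiles with a read, or 1.79 per 1000, against 17.6 per 1000 on the autosomes. The 14 tiles held 5 to 18 counting bins with a median of 6, and 4 of them also met the rule in the library with no treatment named. Their total RPM ratio ranged from 1.06 to 2.43 with a median of 1.53.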

How the results depend on the processing

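Median ratios stayed over 1 in every alternative and counts followed the thresholds. Of 135 values under 24 alternatives, 99 stayed within the interval of the typical window (for counts, within 1.5 times), 36 moved and 0 reversed. For ratios that interval is wide, at 1.36 to 1.96 in the counting bins. Medians of 1.44 and 1.49 there were thus among those that stayed. The 2090 windows became 4356 at a bin threshold of RPM 0.75, 721 at 1.5, 3450 with 4 counting bins, 1353 with 6, 348 with 5 separate sites, 842 when chosen in the unnamed library and 761 when required in both. The median ratio of 1.31 stayed between 1.24 and 1.37 except after subtraction of the local background (1.63). The median in counting bins of 1.64 fell to 1.35 when windows and bins were chosen in the unnamed library. The 467 higher windows became 745 and 216 at RPM 0.75 and 1.5, 90 with 5 separate sites, 129 when chosen in the unnamed library or in both, 52 at a ratio bound of 2 and 1269 at an excess of 25%. The 1 lower window became 0 with tiles shifted by 10 kb, RPM 1.5, 6 counting bins, 90% at mapping quality 42, 5 separate sites or a bound of 2. It became 2 without a mapping quality rule, with windows of the unnamed library, with a median ratio of 1 over all tiles or after thinning, and 5 at a bound of 25%. The share that met the rule in the other library, 36.4%, was 26.6% at RPM 1.5, 40.4% and 32.0% with 4 and 6 counting bins, 34.1% at 90% mapping quality, 39.0% without a shift of the 5′ end, 27.9% with 5 separate sites, 33.6% with only top-quality reads, 33.3% with every other read, and 90.4% for windows of the unnamed library. Scaling by reads outside counting bins moved every log2 ratio by 0.06. Where the construction of an alternative does not show why a value moved, the cause was not tested. No paired analysis was possible because each condition has 1 library. Depth limits single bins most: a counting bin held a median of 27 reads in the TGF-β/IL-4 library, and a window 515.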

Other observations

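Mapping quality kept 181 tiles out of the dense windows although they held at least 5 bins at RPM 1. The median share of their reads at the top mapping quality was 85.0%, against 93.3% in the dense windows. Their median ratio was 1.22, with 80% of the values between 0.988 and 1.59.

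Among the dense windows the 123 in which all counting bins fell into 1 site included broad stretches of raised signal. The 2 windows with the most counting bins in 1 site were looked up after their values had been seen. On chromosome 9 from 95400001 to 95420000, 10 counting bins spanned 2.4 kb, with 27.0 RPM in the TGF-β/IL-4 library and 16.3 RPM in the other, and 2 bins counted in the other. On chromosome 2 from 30900001 to 30920000, 9 counting bins spanned 1.8 kb, with 39.5 and 33.0 RPM, and 7 bins counted in the other library.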
